A study of Rattus norvegicus with 6 samples.

Results

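The genes described are 9 transcription factors that set and maintain the identity of hepatocytes: Hnf4a, Foxa1, Foxa2, Foxa3, Cebpa, Cebpb, Onecut1, Prox1 and Nr5a2. They were taken by symbol, and each symbol matched 1 of the 19616 genes with deposited expression values. All 9 are protein-coding and reached a mean of 0.1 FPKM over the 6 rats, the minimum for testing. RNA depleted of ribosomal RNA was sequenced from the livers of 6 male SD (Sprague-Dawley) rats, with 1 library for each rat. The FL group consisted of 3 rats (FL2, FL5 and FL12) labelled as having liver fibrosis, which had received intraperitoneal carbon tetrachloride (CCl4) in olive oil at 2 mL/kg, with 2 injections a week for 5 weeks. CCl4 is a solvent that injures hepatocytes after it is activated by a cytochrome P450, and repeated doses cause scarring. The CL group consisted of 3 rats (CL5, CL6 and CL7) labelled as normal, which had received an equal volume of olive oil. The age of the rats was not given. The comparison asks whether the genes that keep hepatocytes differentiated are expressed at a different level in the fibrotic liver.

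A hepatocyte keeps its identity through a network in which a small number of liver-enriched transcription factors bind one another's promoters and, together, the promoters of the genes for plasma proteins, lipid transport, bile acid synthesis and glucose metabolism. HNF4A is a nuclear receptor at the centre of this network. FOXA proteins are pioneer factors, which bind their sites in closed chromatin and open it for other factors. C/EBP proteins are basic leucine zipper factors of metabolic and acute-phase genes, and Onecut1 (HNF6), Prox1 and Nr5a2 (LRH-1) complete the set with roles in bile duct formation, hepatoblast outgrowth and bile acid synthesis.

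Expression is given as FPKM, the fragments of a gene scaled to the length of its transcript and to the mapped fragments of the library, which allows levels of different genes to be compared. FPKM summed over all genes to 309425, 340467 and 315259 in CL5, CL6 and CL7, and to 309226, 272350 and 272110 in FL2, FL5 and FL12. Read counts are unknown. The smallest steps between low values of the U6 RNA genes put the depth of CL6, CL7, FL2, FL5 and FL12 at 0.656, 0.84, 0.677, 0.75 and 0.677 of the depth of CL5. By this estimate CL5 was the deepest library. The estimate is rough, since 66.7% (FL2) to 82.9% (CL7) of these U6 values were whole multiples of the step, with 72.7% in CL5.

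CL5 in the CL group and FL2 in the FL group had the most genes at least 2-fold below both group mates. Among the 10160 protein-coding genes whose mean reached 1 FPKM, 60 (0.591%) were at least 2-fold lower in CL5 than in both CL6 and CL7, against 27 for CL6 and 33 for CL7 when each was compared with its group mates in the same way. Onecut1 and Foxa1 were among the 60. FL2 was at least 2-fold below both FL5 and FL12 in 180 genes (1.77%) and at least 2-fold above both in 67 (0.659%), and Onecut1 and Foxa1 were among the 67. The corresponding numbers below their group mates were 34 for FL5 and 75 for FL12, with Onecut1 among the 75. The 75 of FL12 exceeded the 60 of CL5. The numbers above their group mates were 64 for FL5 and 50 for FL12, similar to that of FL2, and 37 for CL5, 27 for CL6 and 14 for CL7. For Foxa1, Foxa2 and Cebpa, CL5 was the lowest CL rat and FL2 the highest FL rat, so their changes are given with and without CL5 and FL2.

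Between the FL and CL groups, 0 of the 9 genes were called differentially expressed with limma on log2(FPKM + 0.1), where a call needed at least a 2-fold change and an adjusted p under 0.05. Over all 14864 genes tested, 10.2% were called, 9.29% as higher and 0.935% as lower in the FL group. Without the limit on the fold change 0 of the 9 passed, against 18.9% of all genes (16.9% higher and 1.94% lower). An unadjusted p under 0.05 was reached by 3 of the 9 (35.5% of all genes). These were Cebpa and Prox1 with higher values in the FL group (31.5% of all genes) and Foxa2 with lower values (4.04%). limma without a trended prior or with a robust prior also called 0 of the 9. In 6 of the 9 genes the log2 fold change was smaller than 0.5 in size.

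The median log2 fold change of the 9 genes was 0.00, and that of all genes tested was 0.29. Median scaling moved the latter to 0.08 and quantile normalization to -0.04, so each change is also stated as its distance from this median. Measured in that way, Cebpa and Prox1 lay above the median of all genes and the other 7 lay below it, with -1.18 for Foxa1, -0.373 for Onecut1, -0.288 for Foxa3, -0.236 for Cebpb and -0.166 for Nr5a2. The groups did not overlap in 3 of the 9 genes, against 40.5% of all genes. For Cebpa and Prox1 every FL rat lay above every CL rat (35.7% of all genes), and for Hnf4a every FL rat lay below (4.78%). In bulk liver, fewer hepatocytes and less of an RNA in each hepatocyte cannot be told apart.

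**Figure D1:**
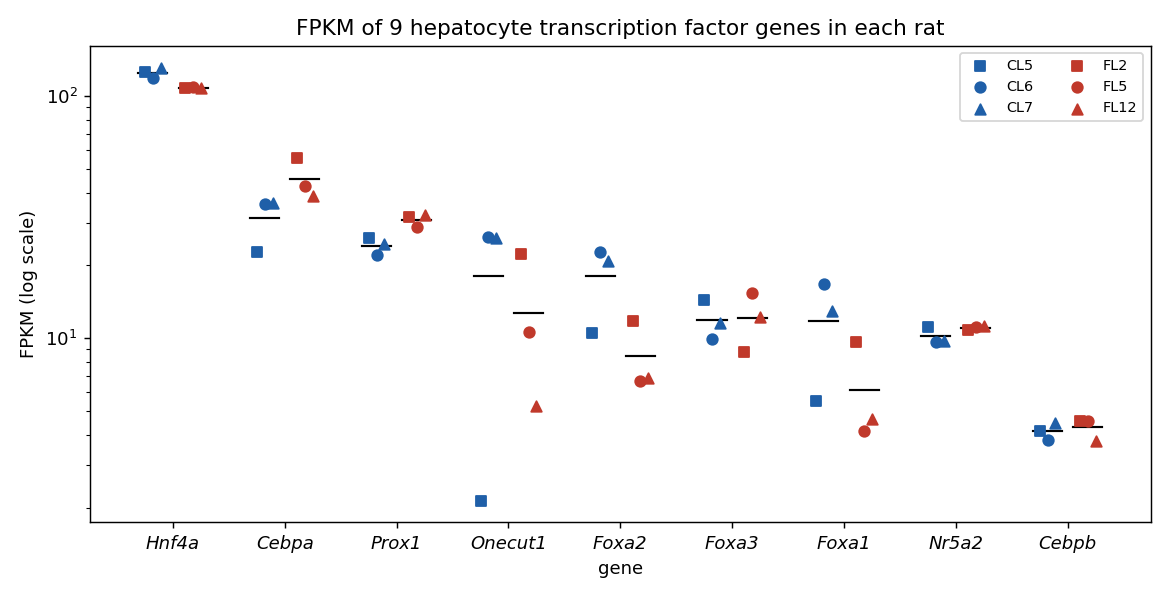
FPKM (log axis) of the 9 genes in each rat, in blue for the CL group and red for the FL group, with a black line at the mean of 3 rats; genes are ordered by their CL mean. Hnf4a was the highest gene in every rat, and the CL5 value of Onecut1 (2.14 FPKM) lay far below the other CL rats (26.2 and 26.0 FPKM).

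By level, the 9 genes spanned a wide range. In the CL group the order of the means was Hnf4a, Cebpa, Prox1, Onecut1, Foxa2, Foxa3, Foxa1, Nr5a2 and Cebpb, from 125 to 4.14 FPKM. Hnf4a was separated from Cebpa in every CL rat, and so was Nr5a2 from Cebpb, whereas the other neighbours in the order overlapped. In the FL group the order was Hnf4a, Cebpa, Prox1, Onecut1, Foxa3, Nr5a2, Foxa2, Foxa1 and Cebpb, from 108 to 4.30 FPKM. There the first 4 genes were separated from one another, and the neighbours from Onecut1 downward overlapped. Foxa2 stood above Foxa3 and Nr5a2 in the CL group and below them in the FL group, with overlap between rats. Over the 6 rats, Hnf4a had a higher mean than 98.4% of the protein-coding genes and Cebpb a higher mean than 65.3%.

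Hnf4a (ENSRNOG00000008895, chromosome 3) was abundant and varied little. It read 125, 119 and 131 FPKM (CL5, CL6 and CL7) against 108, 109 and 108 FPKM (FL2, FL5 and FL12). Every FL rat lay below every CL rat, by a small margin. The means were 125 ± 6.12 and 108 ± 0.933 FPKM (SD, n = 3 rats each), a log2 fold change of -0.21 (95% confidence interval -0.48 to 0.06, adjusted p = 0.239, standard error 0.12). The 3 FL values were closer to each other than those of almost any other gene, since only 0.413% of the 10160 protein-coding genes above 1 FPKM had a smaller range in the FL group. With median scaling the log2 fold change was -0.43 (adjusted p = 0.0623, and over all alternatives from 0.0623 to 0.463). Relative to the median of all genes it was -0.50 as deposited, -0.51 with median scaling and -0.15 with quantile normalization.

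The FOXA genes did not share a pattern over the rats. Foxa2 (ENSRNOG00000013133, chromosome 3), which in liver serves bile acid and fasting metabolism, read 10.6, 22.7 and 20.8 FPKM (CL5, CL6 and CL7) against 11.8, 6.65 and 6.83 FPKM (FL2, FL5 and FL12). The groups overlapped only through CL5, which lay below FL2. The mean was 18.03 ± 6.54 FPKM for CL and 8.43 ± 2.93 FPKM for FL, 2.09-fold lower by the log2 fold change of -1.06 (95% confidence interval -1.81 to -0.31, standard error 0.33). With an adjusted p of 0.0565 the gene just missed the threshold.

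The call on Foxa2 turned on single rats. Without CL5 the log2 fold change was -1.41 (adjusted p = 0.0266, standard error 0.26), and Foxa2 was downregulated, along with 0.727% of all genes, while 0 of the 9 and 6.2% of all genes were upregulated. Without FL2 it was -1.33 (adjusted p = 0.0304, standard error 0.32), again a downregulated gene, along with 1.07% of all genes (12.3% were upregulated). Leaving out any other rat gave a log2 fold change of -0.86 to -0.94 and no call. For Foxa2, CL5 was the lowest CL rat and FL2 the highest FL rat, so leaving out either had to enlarge the decrease. The calls without these rats are therefore no test of Foxa2. Over all alternatives the adjusted p of Foxa2 ran from 0.0266 to 0.183, and the log2 fold change from -1.64 to -0.86. Relative to the median of all genes it was -1.35 as deposited, -1.36 with median scaling and -1.25 with quantile normalization.

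Foxa1 (ENSRNOG00000009284, chromosome 6), which shares many binding sites with Foxa2 in liver, had the same order of rats with wider scatter. It read 5.52, 16.8 and 13.03 FPKM (CL5, CL6 and CL7) against 9.62, 4.14 and 4.65 FPKM (FL2, FL5 and FL12). CL5 lay below FL2 and near the other FL rats. The log2 fold change was -0.89 (95% confidence interval -1.91 to 0.13, adjusted p = 0.190, standard error 0.44), which became -1.36 without CL5 (adjusted p = 0.0612) and -1.26 without FL2 (adjusted p = 0.0814). Leaving out any other rat brought it nearer to 0, from -0.565 without CL6 to -0.745 without CL7. None passed the threshold, and the adjusted p over all alternatives ran from 0.0612 to 0.437. As for Foxa2, leaving out CL5 or FL2 had to enlarge the decrease, so those values are no test of Foxa1.

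Foxa3 (ENSRNOG00000014256, chromosome 1), which has a known part in glucose homeostasis, behaved differently. It read 14.4, 9.93 and 11.6 FPKM (CL5, CL6 and CL7) against 8.76, 15.4 and 12.2 FPKM (FL2, FL5 and FL12). CL5 was the highest CL rat and FL2 the lowest FL rat, the opposite of Foxa1 and Foxa2. The group means of 11.96 ± 2.26 and 12.1 ± 3.34 FPKM gave a log2 fold change of 0.00 (95% confidence interval -0.51 to 0.51, standard error 0.22), which turned to -0.22 with median scaling and -0.19 with quantile normalization.

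The make-up of FOXA transcripts differed between rats. Foxa3 took 47.2%, 20.1% and 25.4% of the summed FPKM of the 3 FOXA genes in CL5, CL6 and CL7, and 29.0%, 58.9% and 51.6% in FL2, FL5 and FL12. CL5 resembled FL5 and FL12 in this share, and FL2 resembled CL6 and CL7. The mean share of Foxa3 was 15.6 percentage points higher in the FL group (exact permutation test, two-sided p = 0.2), and 23.7 points higher without CL5, 24.3 without FL2, 10.1 without CL6 and 9.36 without FL5. The share of Foxa2 was 34.6%, 46.0% and 45.9% in the CL rats and 39.1%, 25.4% and 28.8% in the FL rats, in the same order, a difference of -11.1 points (exact permutation test, two-sided p = 0.2), or -14.8 without CL5 and -15.1 without FL2. For Foxa1 the difference in share was -4.49 points (exact permutation test, two-sided p = 0.6), and single rats moved it, to -8.89 without CL5, -9.21 without FL2, -0.988 without CL6 and -1.17 without FL5.

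The summed FPKM of the FOXA genes was 30.5, 49.4 and 45.4 in CL5, CL6 and CL7, and 30.2, 26.2 and 23.7 in FL2, FL5 and FL12. Every FL value was smaller than every CL value, although FL2 and CL5 were nearly equal. The means were 41.8 ± 9.98 and 26.7 ± 3.27 FPKM (exact permutation test, two-sided p = 0.1, the smallest that 3 rats against 3 allow). This sum was one of 9 sums, shares and ratios compared in this way, and after Benjamini-Hochberg adjustment over the 9 its p was 0.3. Of the 9, only the log2 ratio of Cebpb to Cebpa was a planned comparison. The sum and the other ratios were chosen after the values had been seen.

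**Figure D2:**
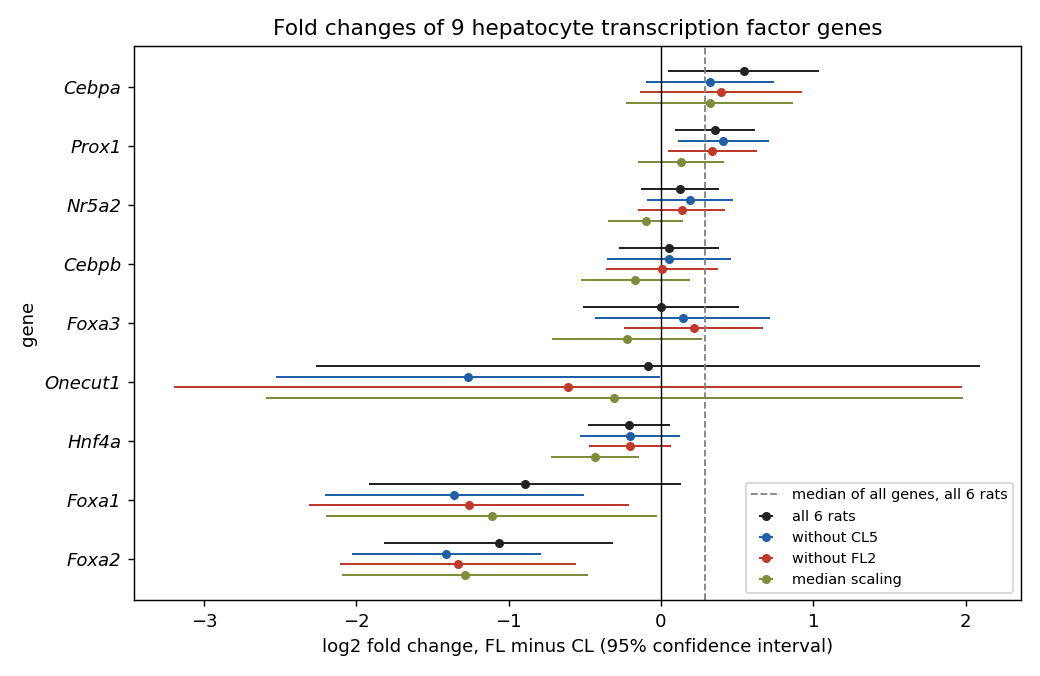
log2 fold changes (FL minus CL) of the 9 genes with 95% confidence intervals from limma, for all 6 rats, without CL5, without FL2 and with median scaling; the dashed line marks the median of all genes (0.29). Foxa2 had the lowest value, -1.06, and was further from 0 without CL5 (-1.41) or without FL2 (-1.33). These are the lowest CL and the highest FL rat for Foxa2, so leaving out either had to enlarge its decrease. Leaving out any other rat gave -0.86 to -0.94, which is not drawn. Onecut1 had the widest interval, and Foxa3, Cebpb and Nr5a2 change sign with median scaling.

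Onecut1 (ENSRNOG00000008095, chromosome 8) encodes HNF6, a cut-homeodomain factor that is known to activate Foxa2 and to be induced in rat liver by growth hormone. It read 2.14, 26.2 and 26.0 FPKM (CL5, CL6 and CL7) against 22.4, 10.6 and 5.25 FPKM (FL2, FL5 and FL12). In the CL group 2 rats were nearly equal and CL5 lay 11.7-fold below them, whereas the FL rats were spread over the range between. The highest and the lowest rat differed 12.2-fold in the CL group, a larger range than in 99.9% of the 10160 protein-coding genes above 1 FPKM, and 4.26-fold in the FL group.

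The group means of Onecut1 were 18.1 ± 13.8 and 12.8 ± 8.76 FPKM, and the log2 fold change was -0.08 (95% confidence interval -2.26 to 2.10, adjusted p = 0.958, standard error 0.94). The interval admits more than a 4-fold change in either direction, so a difference between the groups was not detectable with these rats. Its sign depended on the rats, with 0.51 without CL6 and -1.27 without CL5 (standard error 0.53). Without CL5 the adjusted p was 0.165, in a span of 0.165 to 0.996 over all alternatives. The ratio to the related gene Onecut2 also varied between rats, with a log2 ratio of Onecut1 to Onecut2 of -1.67, 1.21 and 1.37 in CL5, CL6 and CL7 and 0.67, -0.12 and -1.16 in FL2, FL5 and FL12.

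Genes that were low in CL5 together with Onecut1 were looked at after their values had been seen. Ranked by how far CL5 lay below CL6 and CL7, Onecut1 was number 4 of the 10160 genes, Foxa1 number 36, Foxa2 number 88 and Cebpa number 282. Gadd45g, a growth arrest gene, was number 2 and Cish number 3. Cish and Socs2 encode feedback inhibitors that growth hormone induces through STAT5, and Socs2 was number 11.

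Cish read 0.74, 11.2 and 10.4 FPKM (CL5, CL6 and CL7) against 2.62, 1.15 and 0.87 FPKM (FL2, FL5 and FL12). CL5 was at the level of the FL rats, and in the FL group FL2 was the highest, as it was for Onecut1. Socs2 read 14.2, 90.1 and 69.4 FPKM (CL5, CL6 and CL7) against 28.1, 12.5 and 5.30 FPKM (FL2, FL5 and FL12). The order of the 3 FL rats was the same for Socs2, Cish and Onecut1. With all rats neither Cish (log2 fold change -1.64, adjusted p = 0.246) nor Socs2 (log2 fold change -1.85, adjusted p = 0.130) was called. Since the genes described here were picked for their CL5 values, a comparison without CL5 would be no test of them.

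Hhex, a homeobox gene of the liver bud and the adult hepatocyte, had values much like those of Foxa2. It read 13.4, 41.5 and 35.8 FPKM (CL5, CL6 and CL7) against 13.03, 9.08 and 12.9 FPKM (FL2, FL5 and FL12). CL5 was the lowest CL rat and still lay above all FL rats. The log2 fold change was -1.23 (adjusted p = 0.0642, and up to 0.202 over the alternatives). The smallest adjusted p came from leaving out CL5, which is no test of a gene described for its low CL5 value. Gadd45g read 2.14, 26.4 and 38.2 FPKM (CL5, CL6 and CL7) against 3.44, 2.24 and 3.16 FPKM (FL2, FL5 and FL12), with a log2 fold change of -2.13 (adjusted p = 0.142).

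In the opposite direction, CL5 was high for Igfbp1 and for a G6pc gene, which were picked after the values had been seen and not from a fixed list. Igfbp1, the insulin-like growth factor binding protein 1 gene and a textbook target of FOXA proteins, read 138, 36.5 and 28.2 FPKM (CL5, CL6 and CL7) against 122, 95 and 135 FPKM (FL2, FL5 and FL12). G6pc (ENSRNOG00000051171), the glucose-6-phosphatase gene, read 113, 34.6 and 29.9 FPKM (CL5, CL6 and CL7) against 119, 78.3 and 49.4 FPKM (FL2, FL5 and FL12). In both genes CL5 lay among or near the FL rats. Pck1 (498 FPKM in CL5, 446 in CL6 and 432 in CL7) and the second G6pc gene (9.16, 12.5 and 11.3 FPKM, in this order) did not show this. The log2 fold change of Igfbp1 was 1.15 (adjusted p = 0.156). The labels give no feeding state or hormone level, and the cause of the values of CL5 was not tested.

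**Figure D3:**
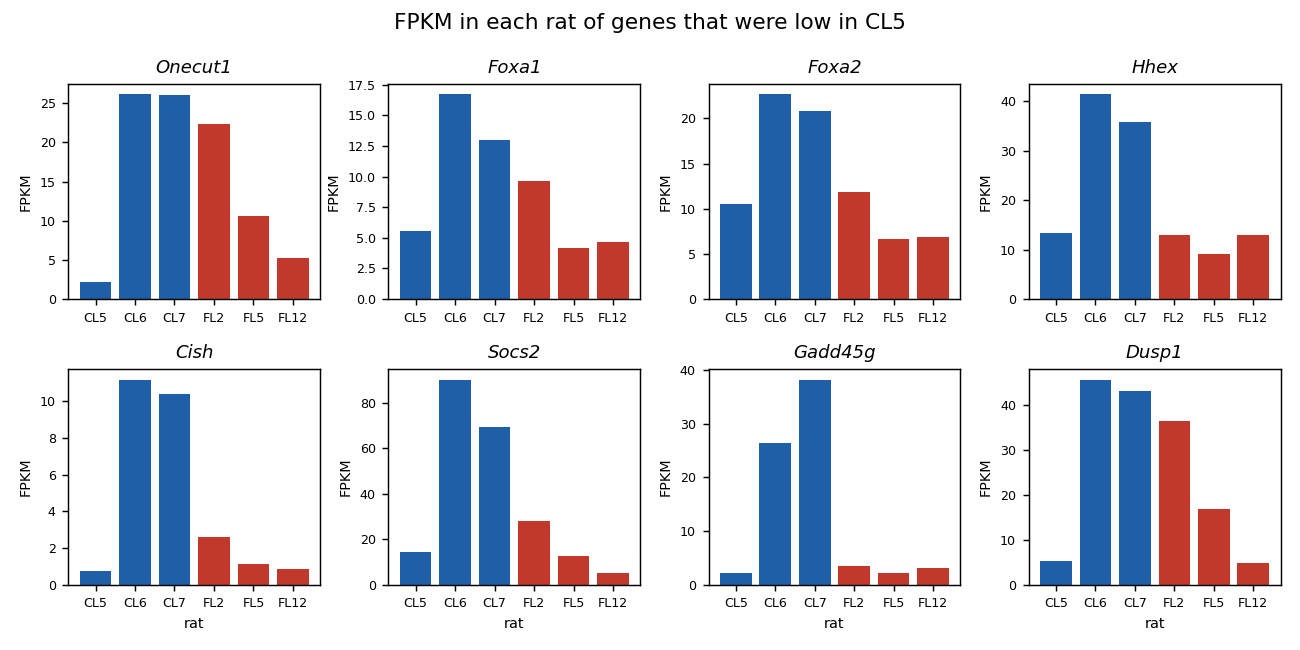
FPKM in each rat (bars, CL in blue and FL in red) of 8 genes that were low in CL5. CL5 lay below CL6 and CL7 in all 8, and for Onecut1 (2.14 FPKM), Cish (0.74 FPKM) and Gadd45g (2.14 FPKM) it lay at or below the level of the FL rats.

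The C/EBP genes had different levels and different patterns. Cebpa (ENSRNOG00000010918, chromosome 1), which drives metabolic genes and restrains hepatocyte division, read 22.6, 35.8 and 36.1 FPKM (CL5, CL6 and CL7) against 55.3, 42.6 and 38.6 FPKM (FL2, FL5 and FL12). Every FL rat lay above every CL rat, with FL12 only slightly above CL7. The means were 31.5 ± 7.71 and 45.5 ± 8.71 FPKM, a log2 fold change of 0.54 (95% confidence interval 0.05 to 1.04, adjusted p = 0.113, standard error 0.21). CL5 and FL2 set much of this difference, which was 0.32 without CL5 (adjusted p = 0.263) and 0.40 without FL2 (adjusted p = 0.223), in a range of adjusted p over all alternatives from 0.110 to 0.822. Relative to the median of all genes the log2 fold change was 0.26 as deposited, 0.24 with median scaling and 0.48 with quantile normalization.

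Cebpb (ENSRNOG00000057347, chromosome 3), which responds to cytokines and partial hepatectomy and is also expressed in macrophages, was the lowest of the 9 genes. It read 4.14, 3.79 and 4.49 FPKM (CL5, CL6 and CL7) against 4.57, 4.56 and 3.78 FPKM (FL2, FL5 and FL12). The groups overlapped fully. For Cebpb the log2 fold change was 0.05 (95% confidence interval -0.27 to 0.38, adjusted p = 0.813, standard error 0.14), and it turned to -0.17 with median scaling and -0.27 with quantile normalization. The upper bound of 0.38 lies well under a 2-fold increase.

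Because both C/EBP genes are read in the same library, their ratio is not changed by a single scaling factor for each rat. Cebpa exceeded Cebpb 5.47-, 9.45- and 8.04-fold in CL5, CL6 and CL7, and 12.1-, 9.35- and 10.2-fold in FL2, FL5 and FL12. The groups overlapped by a narrow margin, since FL5 lay just below CL6. The log2 ratio of Cebpb to Cebpa was -2.87 ± 0.404 in the CL group and -3.36 ± 0.190 in the FL group, a difference of -0.49 (exact permutation test, two-sided p = 0.2; adjusted over the 9 such values, 0.3). Without CL5 it was -0.268 and without FL2 -0.388.

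Prox1 and Nr5a2, which lie on chromosome 13, were the steadiest of the genes beside Hnf4a and Cebpb. Prox1 (ENSRNOG00000003694) encodes a homeobox factor that is a corepressor of HNF4A and LRH-1 at bile acid genes, and that also marks lymphatic endothelium. It read 26.0, 22.1 and 24.45 FPKM (CL5, CL6 and CL7) against 31.75, 28.75 and 32.3 FPKM (FL2, FL5 and FL12). Each FL rat lay above each CL rat. The log2 fold change was 0.36 (95% confidence interval 0.09 to 0.62, adjusted p = 0.0633, standard error 0.11), which is 1.28-fold. Relative to the median of all genes it was 0.07 as deposited, 0.05 with median scaling and 0.28 with quantile normalization, and with median scaling the log2 fold change itself was 0.13 (adjusted p = 0.514, and over all alternatives from 0.0633 to 0.514).

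Nr5a2 (ENSRNOG00000000653) encodes LRH-1, a nuclear receptor that activates the bile acid synthesis genes Cyp7a1 and Cyp8b1. It read 11.2, 9.65 and 9.74 FPKM (CL5, CL6 and CL7) against 10.9, 11.1 and 11.3 FPKM (FL2, FL5 and FL12). CL5 lay within the FL range and the other CL rats lay below it. For Nr5a2 the log2 fold change was 0.12 (95% confidence interval -0.13 to 0.38, adjusted p = 0.455, standard error 0.11), and turned to -0.10 with median scaling and -0.09 with quantile normalization.

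For each of the 9 genes, the protein-coding genes above 1 FPKM with the most similar pattern were found by the Euclidean distance between log2(FPKM + 0.1) values over the 6 rats, after each gene was centred on its own mean. Among 10160 genes, the nearest to Foxa1 was Foxa2 (distance 0.487), and Foxa1 was the second nearest to Foxa2, after Abhd1 (distance 0.335). Abhd1, which encodes a protein with an alpha/beta hydrolase fold, read 3.55, 7.87 and 7.26 FPKM (CL5, CL6 and CL7) against 4.37, 2.95 and 2.35 FPKM (FL2, FL5 and FL12). These values repeat the order of Foxa2 in the CL rats and the high place of FL2 in the FL group. The third nearest of both Foxa1 and Foxa2 was AABR07053136.1.

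The nearest gene to Onecut1 was Dusp1 (distance 1.01), the immediate-early gene of a phosphatase that inactivates MAP kinases. It read 5.21, 45.7 and 43.1 FPKM (CL5, CL6 and CL7) against 36.4, 16.8 and 4.71 FPKM (FL2, FL5 and FL12). Like Onecut1 it was low in CL5 and FL12 and high in CL6, CL7 and FL2. The next were AABR07070720.1 (1.39) and Sebox (1.51), and among the other transcription factors described Foxa1 was number 14 and Foxa2 number 60. Hnf4a had Pdf (0.117), Apob (0.130) and Dcaf6 (0.134) as its nearest genes. Apob encodes the apolipoprotein of very low density lipoprotein and is a textbook target of HNF4A. It read 922, 884 and 896 FPKM (CL5, CL6 and CL7) against 811, 762 and 759 FPKM (FL2, FL5 and FL12).

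The remaining nearest genes had no place in the lists used here. They were Zfp3 (0.182), Mt-cox3 (0.207) and Caap1 (0.209) for Cebpa, and Rnf5 (0.114), Nsmce4a (0.126) and March7 (0.132) for Cebpb. For Foxa3 they were Nfxl1 (0.260), Pus10 (0.266) and Tmem128 (0.271), and for Prox1 they were Cisd2 (0.0626), Pcdh12 (0.0766) and Dpp3 (0.0935). Nr5a2 was nearest to ENSRNOG00000031202 (0.0538), Rnf111 (0.0556) and Supt6h (0.0690). Genes that vary little have small distances to many others, so the size of a distance is not comparable between the 9 genes.

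Promoter sequences from RefSeq (build GRCr8, 250 bases before to 50 after each start) were available for 6 of the 9 genes, with 2 starts for Hnf4a. No entry was found for Foxa1, Onecut1 and Prox1. The motifs searched, on both strands, were TGTTTAC and TGTTTGC for FOXA, CAAAGTCCA for HNF4, TTGCNNAA for C/EBP, ATCAATC for HNF6 and CAAGGTCA for LRH-1. They were held by 3.78%, 4.88%, 0.391%, 10.6%, 1.83% and 1.52% of the 33469 windows, respectively. None of these exact letter strings occurred in the 7 windows of the 6 genes. Each is only 1 form of a variable site, so this does not show that the windows lack sites for these factors.

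Within the FOXA and C/EBP families, where members with different patterns could be set side by side, the 120 bases upstream of the start were searched for a core promoter word. The word TATAAA, chosen after the sequences had been seen, is the core of a TATA box. It occurred on the gene's own strand in the 120 bases of Foxa3, Cebpa and Cebpb, beginning 82, 35 and 33 bases before the start, and not in those of Foxa2, Nr5a2 or either Hnf4a start. Foxa2 held the word on its own strand further upstream, within the longer window searched above. The difference within the FOXA family therefore holds for the 120 bases only. Of all windows, 4.38% held it there on the gene's own strand and 6.66% on either strand. The sequences of Foxa2 (minus strand, chr3:155927509-155927628), Foxa3 (minus strand, chr1:87799486-87799605), Cebpa (plus strand, chr1:96896464-96896583) and Cebpb (plus strand, chr3:176816885-176817004) are shown 5′ to 3′ with TATAAA in capitals.
Foxa2: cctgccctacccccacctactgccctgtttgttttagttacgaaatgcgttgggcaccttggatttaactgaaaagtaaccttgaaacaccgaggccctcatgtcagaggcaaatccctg
Foxa3: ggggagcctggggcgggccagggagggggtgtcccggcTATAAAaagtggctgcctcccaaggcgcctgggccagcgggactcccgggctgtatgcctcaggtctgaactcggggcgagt
Cebpa: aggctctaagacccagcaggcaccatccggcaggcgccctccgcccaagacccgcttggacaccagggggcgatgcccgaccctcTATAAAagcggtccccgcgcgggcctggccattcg
Cebpb: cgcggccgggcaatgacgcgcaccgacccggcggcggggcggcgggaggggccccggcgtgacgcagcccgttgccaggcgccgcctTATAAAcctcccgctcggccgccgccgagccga

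Other transcription factors of the liver were read beside the 9. Of 19 liver-enriched factors, 2 were upregulated and 0 downregulated, against 9.29% and 0.935% of all genes, and the median log2 fold change was 0.20 against 0.29 for all genes. Tbx3, a T-box repressor that supports hepatoblast growth, was upregulated and read 6.43, 2.87 and 3.45 FPKM (CL5, CL6 and CL7) against 9.85, 11.7 and 8.93 FPKM (FL2, FL5 and FL12), with a log2 fold change of 1.32 and a standard error of 0.28. Its adjusted p was 0.0176, in a span of 0.00961 to 0.0782 over the alternatives, and the call was lost with quantile normalization, with no filter on low values and without CL6, CL7 or FL5. Nr2f1, a COUP-TF orphan receptor that competes for HNF4A sites, rose from 0.430 ± 0.0819 to 1.25 ± 0.555 FPKM (log2 fold change 1.28, adjusted p = 0.0342). Leaving out any rat but FL2, either scaling, omitting the filter, or a pseudocount of 1 ended this call, and its adjusted p spanned 0.0152 to 0.355 over the alternatives. Its relative Nr2f2 rose from 6.24 ± 0.493 to 10.7 ± 0.497 FPKM (log2 fold change 0.76, adjusted p = 0.00626, and over the alternatives up to 0.0777), which is under 2-fold. Nr2f2 is also expressed in stellate and venous endothelial cells, whose part in this increase was not tested.

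Nr0b2 encodes SHP, a corepressor without a DNA-binding domain that acts on HNF4A and LRH-1. It read 9.19, 2.51 and 1.46 FPKM (CL5, CL6 and CL7) against 12.9, 20.6 and 9.20 FPKM (FL2, FL5 and FL12). CL5 lay just under FL12, and the other CL rats lay far below. The log2 fold change was 2.02 (adjusted p = 0.0519, and over the alternatives from 0.0147 to 0.174). Atf5 and Creb3l3 had the highest levels of this list, with 344 ± 29.98 and 81.5 ± 16.8 FPKM in the CL group, and neither passed the test.

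For 17 cofactors, dimer partners and regulators of the 9 factors the median log2 fold change was 0.41. The call of upregulated fell on 2 (9.29% of all genes), and 5 had an adjusted p under 0.05 with higher values in the FL group (16.9% of all genes) and 0 with lower values. Ncoa3, a coactivator of nuclear receptors, rose from 2.81 ± 0.0907 to 5.46 ± 0.620 FPKM (log2 fold change 0.93, adjusted p = 0.00592, and over the alternatives up to 0.0810). Src, a kinase that phosphorylates HNF4A, rose from 1.72 ± 0.125 to 3.76 ± 0.690 FPKM (log2 fold change 1.07, adjusted p = 0.00868), and lay under 2-fold with either scaling, with a pseudocount of 1 and without FL5. Hdac3, the deacetylase of the nuclear receptor corepressors, rose 1.502-fold (adjusted p = 0.0221, and over the alternatives from 0.0190 to 0.116).

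Ccnd1 encodes cyclin D1, which represses HNF4A activity and drives cells into the cycle. It read 3.49, 3.11 and 3.35 FPKM (CL5, CL6 and CL7) against 5.35, 23.2 and 26.3 FPKM (FL2, FL5 and FL12). FL2 lay close to the CL rats and the other FL rats far above. The log2 fold change was 2.13 (adjusted p = 0.0303), but the call was lost with either scaling, with no filter on low values, without the trended prior and without any rat except FL2, and its adjusted p spanned 5.73e-04 to 0.162 over the alternatives. Atf4, a dimer partner of C/EBP proteins and the most abundant gene of the list, was at 56.7 ± 12.3 and 60.5 ± 3.16 FPKM. Stat3 was at 20.2 to 23.75 FPKM in the CL rats, FL5 and FL12, and at 44.9 FPKM in FL2.

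Textbook targets of the factors did not move in 1 direction. Of 14 targets of HNF4A, 1 was upregulated (9.29% of all genes) and 0 downregulated (0.935%), and the median log2 fold change was -0.19. Cyp7a1, the rate-limiting enzyme of bile acid synthesis, read 51.1, 27.0 and 29.4 FPKM (CL5, CL6 and CL7) against 96.3, 89.2 and 202 FPKM (FL2, FL5 and FL12), with a log2 fold change of 1.80 (adjusted p = 0.0134, standard error 0.35). Every FL rat lay above every CL rat, and the call was lost without CL6 (adjusted p = 0.0516) or CL7 (adjusted p = 0.0599), with no filter on low values (0.0620), and with quantile normalization and CL5 left out (0.0575). Apoc2, the cofactor of lipoprotein lipase, was lower by less than 2-fold, at 283 ± 19.5 and 181.5 ± 43.0 FPKM (log2 fold change -0.67, adjusted p = 0.0490, and over the alternatives from 0.0114 to 0.140). Otc, a urea cycle gene, was at 149 ± 8.14 and 107 ± 14.6 FPKM (log2 fold change -0.48, adjusted p = 0.0540). In 7 of the 14 targets every FL value was below every CL value, as for Hnf4a itself (4.78% of all genes), and in 3 every FL value was above (35.7% of all genes). These counts use the values as deposited, and the place of the list depended on the scaling. Relative to the median of all genes, the median of the 14 targets was -0.47 as deposited, -0.49 with median scaling and -0.07 with quantile normalization.

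Of 15 targets of C/EBP proteins (G6pc stands for 2 genes), 0 were called in either direction. Their median log2 fold change was 0.14, and depended on the scaling (-0.0819 with median scaling and 0.380 with quantile normalization). Gys2, the glycogen synthase of the liver, had an adjusted p of 0.0170 (over the alternatives from 0.0159 to 0.172) at 1.64-fold, with 21.5 ± 3.18 FPKM for CL and 35.4 ± 4.66 FPKM for FL. Acute-phase genes of the list split by rat and by gene. Orm1 read 166, 254 and 245 FPKM (CL5, CL6 and CL7) against 3920, 296 and 895 FPKM (FL2, FL5 and FL12). Crp read 786, 832 and 869 FPKM (CL5, CL6 and CL7) against 753, 357 and 314 FPKM (FL2, FL5 and FL12). FL2, which was highest for Stat3, was also the highest FL rat for both genes, and neither gene passed the test with all rats. Without FL2, Crp was downregulated (log2 fold change -1.31, adjusted p = 0.00453), and over all alternatives its adjusted p reached 0.252.

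Of 11 targets of FOXA proteins, 0 were called and 0 had an adjusted p under 0.05, and the median log2 fold change was 0.14 (-0.0819 with median scaling). Without FL2 1 was upregulated. Without CL5 1 was upregulated, Igfbp1, whose high CL5 value had already been seen, so this is no test of that gene. Abcc2, the exporter of conjugated bilirubin, read 132, 133 and 114 FPKM (CL5, CL6 and CL7) against 64.3, 87.3 and 112 FPKM (FL2, FL5 and FL12), with a log2 fold change of -0.56 (adjusted p = 0.0902). FL12 lay just below CL7. The 7 targets of HNF6 had 1 upregulated and 0 downregulated genes (9.29% and 0.935% of all genes), with a median log2 fold change of 0.14. Taken over the list with its unreported genes, this median turned to -0.0819 with median scaling and -0.0622 with quantile normalization. Foxa2 is itself among these targets.

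Cyp2c12, a steroid hydroxylase that is typical of the female rat liver and that HNF6 activates, was the most changed target of HNF6. It read 2.47, 6.89 and 6.37 FPKM (CL5, CL6 and CL7) against 62.3, 62.0 and 58.9 FPKM (FL2, FL5 and FL12), with a log2 fold change of 3.65 (adjusted p = 0.00166, standard error 0.34). The FL rats were nearly equal in Cyp2c12, although their Onecut1 levels differed 4.26-fold. Within the CL group, CL5 was lowest for both genes.

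Of 8 targets of LRH-1, 1 was upregulated (Cyp7a1) and 2 were downregulated, against 9.29% and 0.935% of all genes, and the median log2 fold change was 0.79. Abcg5 and Abcg8 encode the partners of the heterodimer that exports sterols into bile, and both fell. Abcg5 read 6.70, 6.32 and 4.02 FPKM (CL5, CL6 and CL7) against 0.50, 1.17 and 1.67 FPKM (FL2, FL5 and FL12), with a log2 fold change of -2.35 (adjusted p = 0.00837, standard error 0.39). Abcg8 read 3.61, 2.56 and 1.41 FPKM (CL5, CL6 and CL7) against 0.09, 0.33 and 0.29 FPKM (FL2, FL5 and FL12), with a log2 fold change of -2.96 (adjusted p = 0.00544, standard error 0.43). Por, the electron donor of microsomal cytochromes P450, had higher values in the FL group (log2 fold change 0.85, adjusted p = 0.0221, and over the alternatives from 0.0155 to 0.179).

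The tissue label was checked against marker genes. Hepatocyte markers were abundant in every rat, and 0 of the 10 were called. Their FPKM summed to 54596, 52032 and 52708 in CL5, CL6 and CL7, and to 46810, 46932 and 45889 in FL2, FL5 and FL12. Most of the smaller FL sum lay in Alb and Ttr. A positive log2 fold change was found in 7 of the 10 markers (median 0.09). With median scaling it was found in 3 (median -0.131) and with quantile normalization in 8 (median 0.398). Tf and Apoa1 were higher in every FL rat than in any CL rat. Alb, the albumin gene and the most abundant of them, was at 32272 ± 1010 FPKM for CL and 24803 ± 572 FPKM for FL. Every FL value was below every CL value, as for Hnf4a, with a log2 fold change of -0.38 (standard error 0.98). This standard error is moderated with the trended prior and is wide beside the spread of the rats. The lack of a call therefore says little about Alb. The same holds for Tf (standard error 0.48) and Ttr (0.42), which are also in the list of HNF4A targets. The adjusted p of Alb was 0.804, and 0.0789 without the trended prior. Quantile normalization gave Alb a log2 fold change of 0.49. Of the pancreas markers, Pdx1 was at 0 in all rats except FL12 (0.27 FPKM), Prss1 and Ptf1a had no values, and Cela1 fell from 2.54 ± 0.265 to 0.153 ± 0.0833 FPKM.

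Some markers of other liver cells rose in the FL group. Of 9 stellate cell or myofibroblast markers 8 could be tested and 5 were upregulated, and their FPKM summed to 77.0, 80.5 and 74.5 in CL5, CL6 and CL7, and to 197, 513 and 477 in FL2, FL5 and FL12. Col3a1 was the most abundant, at 49.0 ± 2.65 and 274 ± 115 FPKM. The count of 5 became 2 when CL5 was left out before quantile normalization, and 6 without FL2. Of 8 macrophage markers 3 were upregulated (Cd68, Marco and Csf1r), with sums of 120.04, 120.0 and 125 in the CL rats and 259, 233 and 140 in the FL rats, and Clec4f was the most abundant. The count of 3 became 2 with either scaling or without FL5, and 1 when CL5 was left out before either scaling. Among 7 cholangiocyte markers, 1 (Spp1, adjusted p = 0.0119, and over the alternatives from 0.00625 to 0.089) was upregulated, and the sums were 5.91, 10.56 and 6.39 in the CL rats and 12.83, 68.8 and 42.7 in the FL rats. Spp1 made up most of this rise, with 0.37, 2.81 and 0.74 FPKM (CL5, CL6 and CL7) against 7.34, 60.6 and 31.1 FPKM (FL2, FL5 and FL12). The median log2 fold change of the 7 markers was 0.66. Over all settings the log2 fold change ran from 0.42 to 2.11 for Cftr, 0.36 to 1.47 for Sox9, 0.12 to 1.69 for Cldn4 and -0.06 to 0.58 for Epcam. Krt7 had a log2 fold change of -0.82 (adjusted p = 0.259) and Krt19 one of -0.01.

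FL2 had the smallest sum among FL rats for the stellate cell, cholangiocyte and cycling cell markers. The 5 cycling cell markers had summed FPKM of 2.47, 4.45 and 2.80 (CL5, CL6 and CL7) against 3.46, 16.2 and 13.9 (FL2, FL5 and FL12), and 1 of them, Mki67, was upregulated (adjusted p = 0.0478, and over the alternatives from 0.00503 to 0.294). Without FL2 all 5 were upregulated, and without any other rat or with either scaling 0 were. FL2 was also the FL rat with the highest Foxa1, Foxa2, Onecut1 and Cebpa. The part of cell composition in the values of the 9 genes was not tested.

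For the remaining markers the calls were few. Of 6 endothelial markers 0 were called, Pecam1 had no values, Kdr was the most abundant, and the sums were 64.2, 66.9 and 58.0 in the CL rats and 82.8, 68.3 and 76.1 in the FL rats. Of 8 lymphocyte markers 6 could be tested and 1 (Cd4, the most abundant, which rat macrophages also express) was upregulated, with sums of 12.03, 9.52 and 11.02 in the CL rats and 22.6, 30.1 and 23.4 in the FL rats. Of 5 granulocyte markers 3 could be tested and all 3 (Csf3r, S100a8 and S100a9) were upregulated, with adjusted p up to 0.222, 0.264 and 0.405 over the alternatives, while Elane and Mpo were at 0 in every CL rat. Their sums were 0.20, 0.74 and 1.06 in the CL rats and 4.35, 1.88 and 3.86 in the FL rats, with S100a8 the most abundant.

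Genes of the fetal liver were read because the 9 factors also act in hepatoblasts. Of 4 such genes 1 was upregulated, Dlk1, which was listed at 0 in every CL rat. Its FPKM was 0.17 in FL2, 0.26 in FL5 and 1.57 in FL12. The call on Dlk1 (adjusted p = 0.0425) was lost with either scaling, with a pseudocount of 1, with no filter on low values, without the trended prior and without any rat except FL2, with adjusted p over the alternatives from 0.0193 to 0.170. H19 had no values. Afp, the alpha-fetoprotein gene and the most abundant of the 4, was at 2.01 ± 0.179 FPKM for CL and 2.47 ± 0.619 FPKM for FL (adjusted p = 0.409). The sums of the 4 were 2.81, 3.07 and 2.51 FPKM (CL5, CL6 and CL7) against 2.96, 3.78 and 5.64 FPKM (FL2, FL5 and FL12).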

How the data were processed

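The 6 rats were grouped by their labels as CL or FL. The authors trimmed reads, aligned them with TopHat2 and deposited FPKM values for each gene, with no scaling between rats stated. The genome is named as GRCh38 in the processing notes, although the gene identifiers are Ensembl's for the rat. In the same table, 2 further columns of values were not used, because no sample carries their names. Between pairs of rats, 0.237% to 1.64% of values were identical.

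log2(FPKM + 0.1) was compared with limma 3.58.1 (R 4.3.3) with a trended prior over the 14864 genes whose mean reached 0.1 FPKM, with Benjamini-Hochberg adjustment. Standard errors are moderated. Sums, shares and ratios were compared by two-sided exact permutation tests. No paired analysis was possible because the rats of the groups are different animals. The comparison was repeated with pseudocounts of 1 and 0.01, without the filter and with a minimum mean of 1 FPKM, with median scaling (9201 genes) and quantile normalization, with a flat and with a robust prior, at any fold change, and with each rat left out in turn. Scaling without CL5 was added after the data were seen. The genes named were drawn from the 9 factors, the 4 genes with the smallest adjusted p and the 2 with the highest mean of each list, and the 3 nearest genes of each factor. Not all of these are printed for every list, and some other genes, such as Krt7 and Krt19, are named as well. Some genes of the lists are not reported, and the counts, medians and sums of 5 lists were taken again without them after the data were seen. The 9 factors and the lists were chosen with earlier results of these data known. The procedure was tested on simulated data. Python 3.11.15 with numpy 2.4.6, pandas 2.3.3 and matplotlib 3.10.9 was used.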

Additional observations from a re-analysis of the deposited data

How the results depend on the processing

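The number of the 9 genes called upregulated was 0 under every alternative. The number called downregulated, and the number with an adjusted p under the threshold at any fold, ranged from 0 to 1 when 1 rat was left out, with 1 (Foxa2) without CL5 and 1 without FL2, and was 1 with median scaling and CL5 left out. Over all genes, upregulated genes numbered 462 with a pseudocount of 1, 846 with no filter, 854 with a mean of at least 1 FPKM, 826 with median scaling, 453 with quantile normalization and 2518 without a limit on the fold change, and ranged from 682 to 1833 when 1 rat was left out. Downregulated genes numbered 72 with a pseudocount of 1, 78 with no filter, 231 with quantile normalization and 288 without a limit on the fold change, and ranged from 80 to 159 when 1 rat was left out.

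The sign of 4 log2 fold changes near 0 turned. Foxa3 was -0.222 with median scaling, -0.193 with quantile normalization, -0.0869 with median scaling and CL5 left out, and -0.0600 with quantile normalization and CL5 left out. Under these 4 settings, in this order, Cebpb was -0.167, -0.273, -0.171 and -0.270, and Nr5a2 was -0.100, -0.0915, -0.0373 and -0.0296. When 1 rat was left out, Foxa3 ranged from -0.190 to 0.215, Cebpb from -0.00801 to 0.141 and Onecut1 from -1.27 to 0.510. The cause was not tested. Read counts were not available, so the part of counting error in the low values, such as Onecut1 in CL5, could not be separated from the spread between 3 rats.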
